A study of Mus musculus with 45 samples.

Results

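The comparison described here is homozygous against heterozygous ΔPG mouse embryonic stem cells (ESCs) in the ES state. Its members are the 6 RNA-seq libraries that the labels give as ES, PG and het or hom, 3 replicates of each, out of 45 samples in the series and 24 RNA-seq libraries. The cells are D3 ESCs of strain 129, grown without feeders in serum and LIF, the cytokine that holds ESCs in self-renewal. In ΔPG cells Cas9 and a donor were used to put a PGK-puro cassette in place of the lncRNA gene 5430416N02Rik, its promoter included, on 1 allele (heterozygous) or on both (homozygous). The ES libraries come from vehicle-treated cells that were kept beside cells given retinoic acid (RA), which drives ESCs out of self-renewal. Every library therefore carries at least 1 deleted allele and the selection cassette, and no wild-type library enters the comparison. The lines were grown from picked clones, and neither the labels nor the methods say which clone each library came from, so a difference between clones and a difference between genotypes cannot be told apart. The study calls the replicates biological without saying whether they were separate cultures or clones, and the p-values measure only the spread between these samples.

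The values are rlog values, a log2 scale from DESeq2 on which low counts are pulled towards the gene's mean, so that differences of weakly expressed genes are understated. Read depth is not given by the table and is unknown. Of 33924 genes, 21979 varied across the 12 ΔPG libraries of the table, and 11904 of them had a mean rlog value of at least 3. A gene was called when limma's moderated test gave a Benjamini-Hochberg adjusted p under 0.1 and the difference exceeded 0.5 on the log2 scale. All differences are homozygous minus heterozygous, and a list is described by its counts and its median, to be read against the same over all genes tested. Any 2 replicates of a genotype correlated at 0.995 or more across genes.

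The gene families that stand behind these results have well-known roles. The p53 protein, encoded by Trp53, is a transcription factor that turns on genes for cell-cycle arrest, DNA repair, apoptosis and its own degradation, and it is also active at a low level in dividing ESCs. Ribosomal proteins, with ribosomal RNA, build the ribosome, and many snoRNA host genes share with them a start site type that ties their RNA to growth and translation. The mitochondrial genome is transcribed by its own polymerase into long precursors that are cut into mRNAs, rRNAs and tRNAs, and its proteins join nuclear-encoded subunits in the respiratory complexes.

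The difference depended first on base composition. Over the 11904 genes, the deviation of a library from the gene mean rose with exonic GC content in the heterozygous ES libraries, by 0.282, 0.286 and 0.29 log2 units per 10 percentage points of GC. In the homozygous ES libraries the slopes were -0.214, -0.194 and -0.23. The RA libraries of both genotypes lay between -0.0644 and -0.0179, so that both ES groups stood apart from RA, in opposite directions. As deposited, the median difference ran from 0.59 in the tenth of genes with the lowest GC content to -0.45 in the tenth with the highest. As deposited, 1510 genes (6.87% of those that varied) were called higher and 1383 (6.29%) lower in homozygous cells.

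For the description of families, a smooth curve against GC content was therefore subtracted from each library. The medians of the 10 groups of genes by GC content then lay between -0.02 and 0.01, and 561 genes (4.71% of 11904) were called higher and 310 (2.6%) lower. Of these 871 calls, 555 were also called in the same direction as deposited. In 49.4% of all genes tested, and in 98.7% of the called genes, the homozygous and heterozygous libraries did not overlap. A second trend was then visible with exonic length. The median difference fell from 0.17 in the tenth of genes with the shortest exons to -0.08 in the tenth with the longest, and called genes had a median exonic length of 1575 bases when higher and 4557 bases when lower, against 3779 bases over all genes. With length removed as well, 442 genes (3.71%) were called higher and 332 (2.79%) lower, and 392 and 239 of the calls made without it were retained. Families below are given with the GC trend removed, and several of them also with length removed. Where length is not mentioned, the counts can still differ with it removed. What in the libraries follows GC content and length was not tested.

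**Figure D1:**
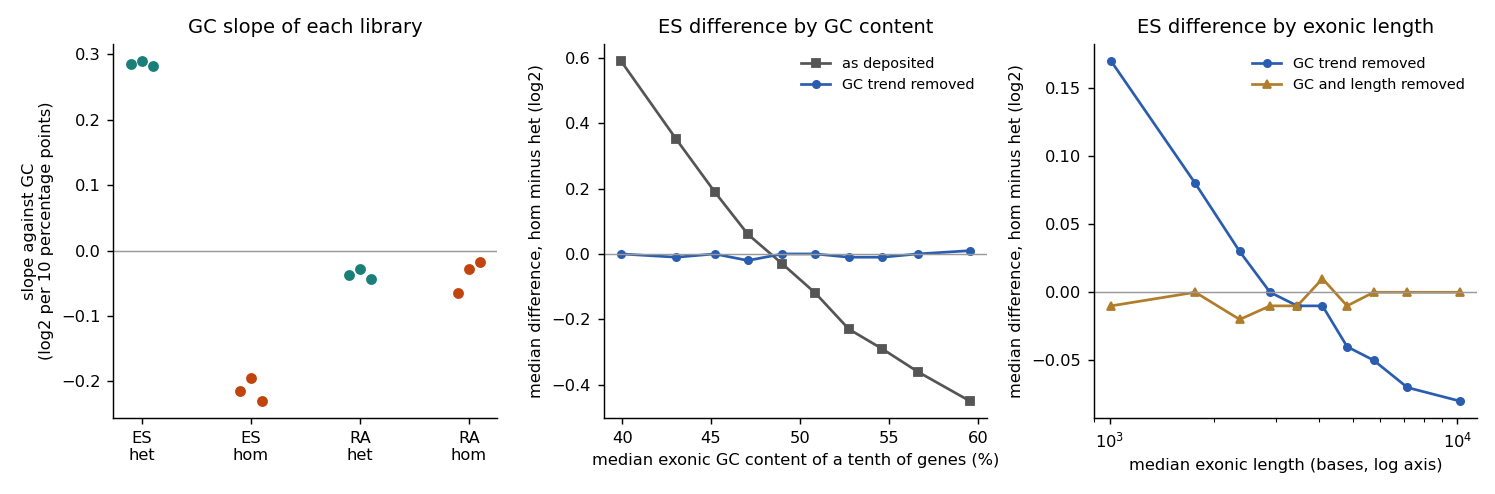
Left, GC slope of every library (log2 per 10 percentage points, 1 point per library), and middle and right, median homozygous minus heterozygous difference in ES (log2) for 10 equal groups of genes ordered by GC content or by exonic length (log axis), under each correction. Heterozygous ES libraries slope up (0.282 to 0.29) and homozygous ES libraries slope down, and removal of the GC curve leaves a median of 0.17 for the shortest genes.

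5430416N02Rik (ENSMUSG00000084877.1, NCBIM37 chromosome 5, 100849861 to 100858535, minus strand) checks the labels. Its rlog values were 4.62, 4.58 and 4.59 in heterozygous and 2.23, 2.21 and 2.46 in homozygous ESCs, and the difference with the GC trend removed was -2.37 (SE 0.148, adjusted p = 1.51e-15). The groups did not overlap, as in 98.7% of all called genes. Of the 10 genes tested in the list of its neighbours, which holds the gene itself, only Hnrpdl, an hnRNP-like RNA-binding protein, rose, from 8.94 to 9.07 in heterozygous to 9.68 to 9.71 in homozygous libraries (difference 0.61, SE 0.0374, adjusted p = 9.81e-16). Lin54, a DNA-binding subunit of the DREAM complex, differed by 0.19 and Sec31a, a COPII coat protein, by 0.28, both under the size limit. As deposited, Lin54 was called at 0.62. The E3 ubiquitin ligase gene Mid1 fell from between 8.45 and 8.49 to between 7.58 and 7.6 (difference -0.8, SE 0.0511, adjusted p = 2.73e-15). Of the study's proteins at the locus, the cohesin gene Smc1a (0.02), Ctcf (0.04) and the Mediator gene Med12 (0.14) were not called.

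The cells carried the markers of ESCs in both genotypes. Pou5f1, the core pluripotency factor also known as Oct4, had rlog values of 11.77 to 11.83 in heterozygous and 11.27 to 11.28 in homozygous libraries. Its difference of -0.52 as deposited became -0.22 with the GC trend removed, under the size limit. Sox2 (0.25), Nanog (-0.03) and Klf4 (0.3) were not called either. Of 25 core and naive pluripotency genes tested, 2 rose (8%, against 4.71% of all genes), 0 fell and the median was 0.01. With length removed, 2 rose and 1 fell. Both rises with the GC trend removed were Krüppel-like factors of the naive network, Klf5 (0.87, SE 0.0597, adjusted p = 2.16e-14) and Klf2 (0.63, SE 0.0544, adjusted p = 7.54e-12), and neither was called as deposited. Lists for primed epiblast, neural progenitors and trophoblast held no call with the GC trend removed, with 7, 8 and 8 genes tested. Lists this short can hold no call at the share of all genes (4.71% higher, 2.6% lower). Summed on the linear scale, trophoblast markers were between 616 and 688 in heterozygous and 845 and 888 in homozygous libraries, and neural progenitor markers between 915 and 918 and between 671 and 722. The sums were lower in homozygous libraries, without overlap, for core pluripotency (27000 to 27800 against 25100 to 25300), primed epiblast (1860 to 1910 against 1520 to 1530), primitive and extraembryonic endoderm (3470 to 3540 against 2840 to 2950) and mesoderm (1550 to 1590 against 1390 to 1470), and fibroblast markers overlapped (3450 to 3470 against 3460 to 3520). These sums follow values as deposited, GC trend included, and their part in the results was not tested. Fewer cells of a type and less RNA per cell cannot be told apart in these libraries.

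The p53 pathway was lower in homozygous cells. Trp53 itself (ENSMUSG00000059552.6, chromosome 11) had rlog values of 7.15, 6.95 and 7.05 in heterozygous and 3.83, 4 and 4.24 in homozygous libraries, with a difference of -2.81 (SE 0.121, adjusted p = 2.71e-20). Of 44 direct p53 target genes listed, 39 passed the filter, 14 of them fell and none rose. That is 35.9% of the targets tested against 2.6% of all genes, and the median of the targets was -0.31 against 0 for all genes. The list was chosen with earlier results of these data known, so this contrast is not independent support. The members that fell include different arms of the response. Eda2r, a receptor of the TNF receptor superfamily, had values of 5.7, 5.69 and 5.76 against 3.06, 3.15 and 3.24. Its difference of -3.2 (SE 0.136, adjusted p = 2.06e-20) was the deepest fall with the GC trend removed, whereas as deposited Trp53 (-3.02) fell further than Eda2r (-2.57). Ccng1, cyclin G1, which feeds back on p53 through Mdm2, went from 8.26, 8.25 and 8.21 to 6.64, 6.78 and 6.92 (-1.98, SE 0.0649). Phlda3, an inhibitor of Akt signalling, went from 6.28, 6.31 and 6.52 to 4.63, 4.74 and 4.31 (-1.32, SE 0.124). The antiproliferative gene Btg2 (-1.02), the spindle gene Psrc1 (-1.02) and adenylate kinase Ak1 (-0.94) followed. In these 6 genes the genotypes did not overlap, as in 98.7% of all called genes. The other targets that fell were Plk2 (-0.94), Trp53inp1 (-0.93), Aen (-0.63), Zmat3 (-0.62), Ppm1d (-0.57), Bbc3 (-0.55), Polk (-0.52) and Xpc (-0.51).

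The best-known p53 targets changed less. Cdkn1a, which encodes the CDK inhibitor p21, was 7.48, 7.5 and 7.47 in heterozygous and 6.77, 6.71 and 6.79 in homozygous libraries. As deposited this was a called fall (-0.73, adjusted p = 1.63e-05), and with the GC trend removed it was -0.44 (adjusted p = 2.51e-06), under the size limit. Bax, a pore-forming death effector, gave -0.73 as deposited and -0.24 with the trend removed. Mdm2, the ligase that degrades p53, gave -0.06 and -0.26. Bbc3, which encodes the BH3-only protein PUMA, fell by 0.55 (SE 0.155, adjusted p = 0.00474), and its call was lost without heterozygous replicate 3 (-0.45) or homozygous replicate 1 (-0.47), and with a straight GC line (-0.33) or a smoother GC curve (-0.46). It was the only 1 of 16 BCL2 family genes called (6.25%, against 2.6% of all genes called lower). Of 17 p53 family members and regulators tested, Trp53 was the only call (5.88%, against the same 2.6%) and the median was -0.01. In lists this small, 1 call is too few to set against the share of all genes. With length removed as well, 12 targets fell, 0 rose and the median was -0.33. As deposited, 16 fell and none rose.

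**Figure D2:**
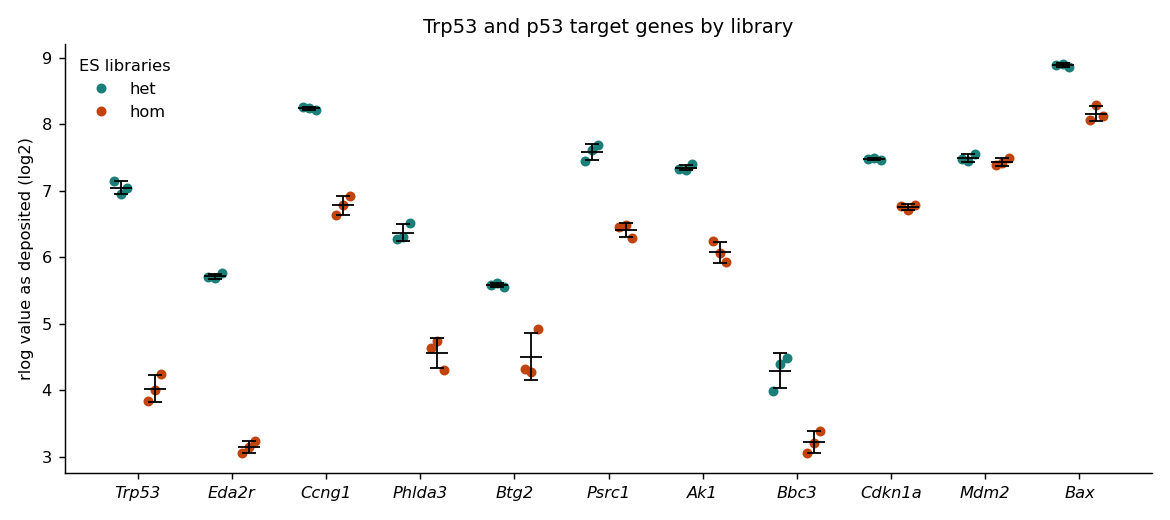
rlog values as deposited (log2) of Trp53 and 10 p53 target genes in the 3 heterozygous and 3 homozygous ES libraries; points are libraries, horizontal marks and bars the mean and SD. For Trp53 the libraries lie between 6.95 and 7.15 against 3.83 and 4.24, whereas Mdm2 differs by only -0.06.

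The RefSeq start regions of the targets were searched for the p53 half-site, a decamer that has the same form on both strands. The regions (GRCm38.p6) ran from 250 bases before to 50 after the annotated start, and the first window listed for each gene was used. A single decamer is a half-site and not a pair of them. A start region was found for 35 of the 44 listed genes. The decamer was present in 4 of 11 windows of targets that fell and in 6 of 20 windows of targets tested and not called. Over all 32851 RefSeq windows, of which a gene can have several, it was present in 8.36%. The stretches below, with up to 20 bases on either side of the decamer, belong to 3 targets that fell and to 3 of the best-known targets that were not called, and show that genes of both kinds carry it near the start. Capitals mark the decamer.
Ccng1 (chr11:40755442-40755491, minus strand): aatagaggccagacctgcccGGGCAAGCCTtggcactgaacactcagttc
Ppm1d (chr11:85311102-85311151, plus strand): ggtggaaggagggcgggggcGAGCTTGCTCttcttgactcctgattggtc
Polk (chr13:96519389-96519437, minus strand): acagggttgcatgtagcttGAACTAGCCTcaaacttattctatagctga
Cdkn1a (chr17:29090886-29090957, plus strand): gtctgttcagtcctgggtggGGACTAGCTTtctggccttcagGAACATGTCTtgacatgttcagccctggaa
Mdm2 (chr10:117710915-117710964, minus strand): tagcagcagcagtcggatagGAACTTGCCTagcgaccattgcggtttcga
Bax (chr7:45467070-45467119, minus strand): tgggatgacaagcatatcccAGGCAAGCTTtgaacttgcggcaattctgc
Ppm1d encodes a phosphatase that switches p53 signalling off and fell by 0.57, and Polk, a translesion DNA polymerase, fell by 0.52. The Polk call came from the GC correction, since its deposited difference was -0.07 with overlapping libraries, and it was lost with length removed (-0.49). In Ccng1, the member with the deepest fall among these, the decamer began at position -185 from the start. Cdkn1a was the only listed gene with a pair of decamers in its window at a gap of at most 13 bases, an arrangement found in 0.0731% of all windows. A match is a description of these letters and says nothing of binding.

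The same p53 genes can be set beside the ΔG cells of the series, in which the gene body alone is deleted. That table was normalised separately, so its levels are only roughly comparable. Trp53 was listed between 2.24 and 2.78 in the 6 ΔG ES libraries, heterozygous and homozygous alike, and Eda2r between -0.56 and -0.53. Ccng1 lay between 6.13 and 6.69, Phlda3 between 3.73 and 4.11, Btg2 between 3.65 and 4.17 and Cdkn1a between 6.05 and 6.26, while Pou5f1 was 11.48 to 11.53 and Mdm2 7.2 to 7.48. For Trp53, Eda2r, Phlda3, Btg2 and Cdkn1a, all 6 ΔG values were below every ΔPG ES library, and for Ccng1 they overlapped the homozygous ΔPG range. Rpl39, a ribosomal protein gene described below, was 10.6 to 10.75 in ΔG cells and the snoRNA host Snhg3 5.8 to 6.21, ranges that hold the homozygous ΔPG values and not the heterozygous ones. Rps16, also described below, was 10.63 to 10.69 in heterozygous and 10.16 to 10.25 in homozygous ΔG cells. Neither range held a ΔPG ES library. The Y gene Ube1y1 was 8.89 to 9.09 in ΔG cells, between both ΔPG groups. Whether the heterozygous or the homozygous ΔPG cells depart from parental cells was not tested, since no parental library was analysed here.

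In RA, the p53 difference remained. Of the 39 targets, 17 were lower and none higher in homozygous cells, where 1.1% of all genes were called lower and 0.496% higher, and the median was -0.44. Eda2r (-3.46), Ccng1 (-2.47), Phlda3 (-1.32) and Trp53 (-2.2) were again lower. Cdkn1a was -2.19 in RA, and the RA difference minus the ES difference was -1.75, a called change of the effect.

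Genes of the mitochondrial genome were higher in homozygous than in heterozygous ESCs. Of 13 mitochondrially encoded protein genes, 11 passed the filter and 10 rose (90.9%, against 4.71% of all genes), with a median of 1.2 and 2.03 as deposited. Over the 12 of them that vary, the median rlog value of a library was 8.56 to 8.68 in heterozygous and 10.36 to 10.5 in homozygous ES libraries. mt-Nd3, a subunit of complex I, was 7.47, 7.45 and 7.42 against 10.17, 10.14 and 10.26 (1.59, SE 0.0405, adjusted p = 3.04e-27). mt-Co3, a subunit of cytochrome c oxidase, was 12.35, 12.32 and 12.33 against 14.42, 14.37 and 14.49 (1.43, SE 0.0154). mt-Atp8 (1.56), mt-Co2 (1.38), mt-Nd1 (1.38) and mt-Cytb (1.2) lay close together. Both rRNAs rose, mt-Rnr1 by 1.22 and mt-Rnr2 by 0.7. mt-Rnr2, the more abundant of them, was at 17.74 in the heterozygous and 19.32 to 19.49 in the homozygous ES libraries. Under quantile normalisation it was -0.97. That setting gives every library the same set of values, which can hold so abundant a gene level before the GC curve is subtracted. It therefore cannot decide the direction of mt-Rnr2. For the protein genes the same 10 of 11 count and a median of 1.13 were obtained under it. The exception among the protein genes, looked at after its value was seen, was mt-Nd6. It is transcribed from the opposite strand to the others, and it differed by 0.14 (SE 0.104, adjusted p = 0.295), against a called 1.2 as deposited. With length removed as well, 10 of 11 rose and the median was 1.05. These genes sit at the edge of the GC curve, where only 204 of the 11904 genes tested have a GC content under 38%, and the size of their difference depends on the curve there. In RA none of the 11 was called and the median was 0.07. The library medians over the 12 varying genes were 10.13 to 10.18 in heterozygous and 10.22 to 10.39 in homozygous RA libraries. By these medians as deposited, the heterozygous ES libraries were the lowest of these groups. Which group departs from parental cells was not tested.

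Cytosolic ribosomal protein genes rose as a family. Of 82 tested, 41 rose and 0 fell (50% against 4.71% of all genes), with a median of 0.49, and 0.44 as deposited. Rpl39, a small protein of the large subunit, was 9.3, 9.27 and 9.28 against 10.7, 10.68 and 10.65 (1.38, SE 0.0304, adjusted p = 3.34e-29). Rps16, of the small subunit, was 9.25, 9.27 and 9.43 against 10.27, 10.33 and 10.28 (1.33, SE 0.0365), and Rps29 (1.29) was close to it. These are short genes, and with length removed 29 rose, 1 fell and the median was 0.35. Of 152 ribosomal protein pseudogenes listed, 13 passed the filter on low values, of which 10 rose and 1 fell with a median of 1. With no filter, 12 rose and 1 fell of 77 and the median was 0.05, so the 13 do not stand for the family. Rpl14-ps1 rose most in the whole comparison, from 4.39, 4.17 and 4.5 to 6.29, 6.38 and 6.51 (2.19, SE 0.122), followed in this family by Rps13-ps1 (1.73), Rps16-ps2 (1.47) and Rpl19-ps11 (1.41). Reads of a ribosomal protein gene and of its near-identical copies can be placed at either, so single members are uncertain. Mitochondrial ribosomal proteins, which are nuclear genes, had 7 of 75 members that rose (9.33%), 1 that fell and a median of 0.07. With length removed 2 rose and 2 fell. Mrpl42 rose by 0.76, and its call was lost with length removed (0.48), while Mrpl51 fell by 0.54.

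Most nuclear-encoded subunits of the respiratory chain were not called. In complex I, 8 of 42 subunits rose (19%, against 4.71% of all genes), 1 fell and the median was 0.2, and in complexes III, IV and V, 11 of 40 rose (27.5%) and 0 fell, with a median of 0.26. Ndufa6 went from 7.07, 6.99 and 7.18 to 8.02, 7.9 and 7.98 (1.11, SE 0.0641), and Ndufb4 differed by 0.92, both accessory subunits of complex I. Ndufb3, another accessory subunit, fell by 0.67 and was not called as deposited (-0.45). Atp5g2, which encodes the ring subunit of ATP synthase, rose from 9.24, 9.15 and 9.25 to 9.91, 9.91 and 9.92 (1.02, SE 0.0347), and Cox7a2 of cytochrome c oxidase by 0.85. With length removed, when 3.71% of all genes were higher and 2.79% lower, the counts were 3 higher and 1 lower of 42, and 6 higher and 1 lower of 40, with medians of 0.12 and 0.11. For complex I, 3 of 42 is near the share of all genes. Glycolysis (23 tested) and the TCA cycle (21 tested) held no call, with medians of -0.06 and -0.03. The glycolysis median had been -0.28 as deposited.

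**Figure D3:**
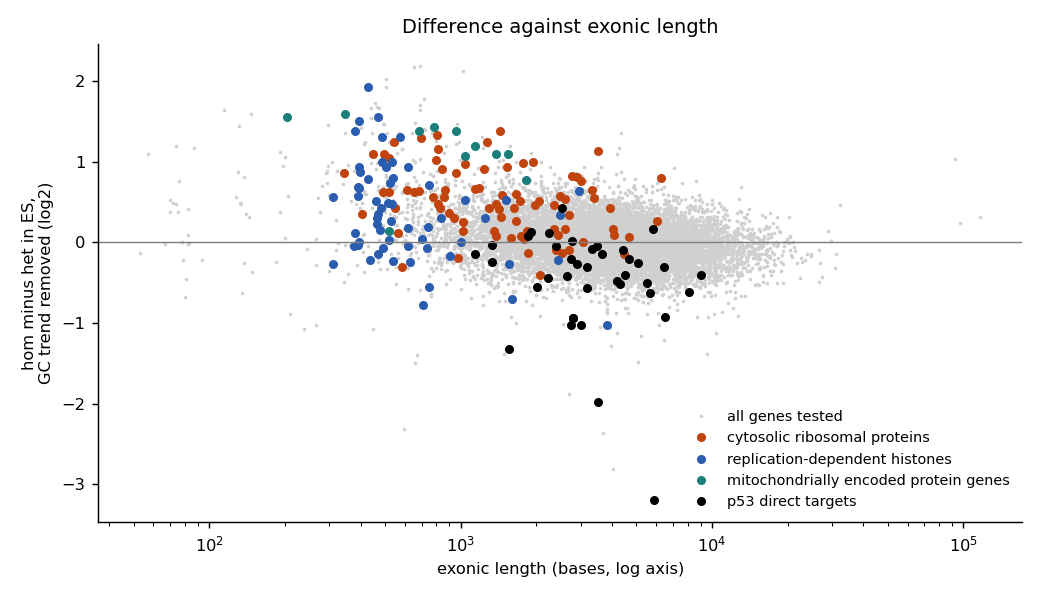
Homozygous minus heterozygous difference in ES with the GC trend removed (log2) against exonic length (bases, log axis), 1 point per gene, with 4 lists coloured. Cytosolic ribosomal protein, histone and mitochondrial genes lie mostly above 0 among the shorter genes, and the p53 targets below 0 at lengths where most genes lie.

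Replication-dependent histone genes gave a result that depended on the correction. Their RNAs lack a poly(A) tail and are made in S phase, and these libraries were made from ribosome-depleted total RNA. With the GC trend removed, 24 of 59 rose (40.7%, against 4.71% of all genes), 4 fell (6.78%, against 2.6%) and the median was 0.3. As deposited, 6 rose, 11 fell and the median was -0.05, and with length removed as well, 12 rose, 9 fell and the median was 0.07. With no filter on low values, 15 rose and 7 fell of 69. The direction of the family is therefore not settled. Hist1h4n was 7.58, 8.16 and 8.18 in heterozygous and 9.45, 9.54 and 9.39 in homozygous libraries (1.93, SE 0.0799). Hist1h2ag (1.55), Hist1h4c (1.51) and Hist1h2bn (1.38) rose as well, and these 4 were also called higher as deposited and with length removed. Hist1h4c had 1 heterozygous library at 8.99 against 7.83 and 7.85. Of 32 cyclins, CDK inhibitors and partners tested, 2 rose (6.25%, against 4.71% of all genes) and 2 fell (6.25%, against 2.6%). The rises were the kinase gene Cdk1 (0.51, SE 0.0341), at the size limit, and E2f8, a repressor of E2F targets (0.62). The falls were Rb1 (-0.62) and Cdkn1b, which encodes p27 (-0.52). The call of Cdk1 was lost under quantile normalisation (0.48), with 1 fit over the 12 libraries (0.49) and with a straight GC line (0.45). Rb1 and Cdkn1b were not called as deposited (-0.09 and -0.18). Rb1 lost its call without homozygous replicate 2 (-0.43), and Cdkn1b without homozygous replicate 3 (-0.46) and with length removed (-0.49). The median of the list was -0.02.

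Of 22 nuclear lncRNAs and snoRNA host genes tested, 6 rose (27.3%, against 4.71% of all genes) and 0 fell, with a median of 0.25, and 5 rose with length removed. Snhg3 went from 4.41, 4.56 and 4.34 to 6, 5.95 and 5.86 (1.25, SE 0.124). Snhg5 (1.02), 1500012F01Rik, the host also known as Zfas1 (0.97), Snhg1 (0.83) and the ESC lncRNA model Gm11019 (0.56) rose too. The snoRNA genes annotated as such were called higher in 20 and lower in 6 of 59 cases, but 8 higher and 17 lower with length removed, so no direction can be given. RNaseP_nuc, a name shared by several annotated models of the RNase P RNA, was 14.21 in every heterozygous library and 12.54, 12.57 and 12.53 in the homozygous (-1.48, SE 0.0147), and it was -0.01 in RA. SNORA25, a shared name as well, fell by 1.38. Annotated pseudogenes were called higher in 56 and lower in 5 of 145 (38.6% and 3.45%), with a median of 0.36, and in 40 and 8 with length removed, when the median was 0.21. Most pseudogenes did not pass the filter on low values. With no filter, 76 were higher and 9 lower of 1510, and the median was 0.03.

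The genes with the deepest changes were mostly of these kinds. Beside Rpl14-ps1, Rps13-ps1 and Hist1h4n, the rises were led by the models Gm13841 (2.17), Gm15500 (2.12), Gm7536 (2.02), Gm11808 (1.93), Gm14456 (1.7), Gm3362 (1.68), Gm15450 (1.66) and Gm9385 (1.66), all with exons of 439 to 1019 bases in total, and by AY036118 (1.78), a model on chromosome 17 with a GC content of 68.5%. Each remained a called rise with length removed, between 1.27 and 1.95 over these. Gm15500 was 5.05, 4.94 and 4.7 in heterozygous and 7.07, 7.15 and 7.24 in homozygous libraries. The models Gm16869 (-1.88), Gm10800 (-1.5) and Gm11168 (-1.4) fell, at GC contents of 35.1 to 36.2%, and Gm11168 was not called as deposited (-0.42). Gm10925, which rose as deposited by 2.32, rose by 1.35 with the trend removed. Dppa5b, a model related to the pluripotency gene Dppa5a, had 9.92, 6.18 and 4.97 in heterozygous and 6.8, 4.06 and 3.16 in homozygous libraries. It was called at -2.31 (SE 0.643, adjusted p = 0.00402) although its libraries overlapped, and it was not called as deposited (adjusted p = 0.26), with no filter on low values (adjusted p = 0.233) or without the mean-variance trend in limma (adjusted p = 0.256).

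**Figure D4:**
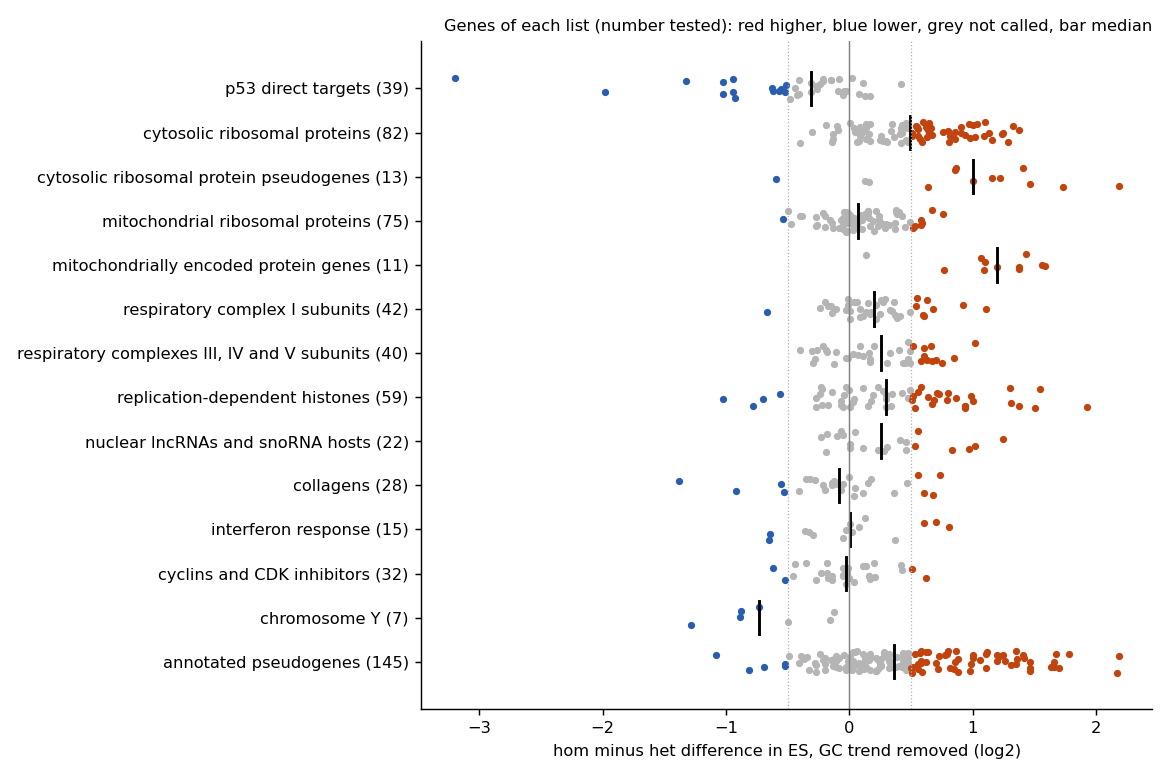
Homozygous minus heterozygous difference in ES with the GC trend removed (log2) for each tested gene of 14 lists; red points are called higher, blue called lower, grey not called, black bars the medians, dotted lines the size limit. The p53 targets lie mainly to the left (median -0.31), the ribosomal protein and mitochondrial genes to the right (medians 0.49 and 1.2), and the collagens on both sides.

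Collagens and interferon response genes were called in both directions. Of 28 collagens, 4 rose (14.3%, against 4.71% of all genes) and 4 fell (14.3%, against 2.6%). With length removed 5 rose and 2 fell, and with no filter on low values 2 rose and 6 fell of 43. The fibrillar genes Col5a2 (5.47, 5.42 and 5.38 against 4.57, 3.98 and 4.3; -1.38, SE 0.14) and Col11a1 (-0.92) fell and were also called as deposited, whereas Col2a1 (0.74), Col27a1 (0.68), Col8a2 (0.61) and Col6a2 (0.56) rose only once the GC trend was removed. Col27a1 lost its call without heterozygous replicate 1 (0.49), and Col6a2 without homozygous replicate 3 (0.37). In the interferon response list, 3 of 15 rose (20%, against 4.71% of all genes) and 2 fell (13.3%, against 2.6%). With length removed, 2 rose and 2 fell. The rises were the antiviral membrane proteins Ifitm2 (0.81), Ifitm1 (0.7) and Ifitm3 (0.61), which are clustered on chromosome 7, and Ifitm3 was at 0.33 with length removed. The falls were the 2-5A synthetase Oas1a (-0.65, and -0.46 without homozygous replicate 3) and Bst2, also known as tetherin (-0.64). Of 27 chaperones, 2 rose (7.41%, against 4.71% of all genes) and 1 fell (3.7%, against 2.6%). The rises were the mitochondrial co-chaperonin Hspe1 (0.94, SE 0.0343) and the Hsp70 partner Dnaja1 (0.76, SE 0.0401). The lipid exporter Abca1 fell from 6.17, 6.06 and 6.34 to 5.38, 5.24 and 4.73 (-1.12, SE 0.132), and the drug exporter Abcc1 fell by 0.69. Among 22 feedback genes of the FGF and ERK pathway, 2 rose (9.09%), the ERK phosphatase Dusp5 (0.68) being 1 of them. Among 16 Notch genes, 2 rose (12.5%), the Notch ligand Dll1 (0.7) being 1 of them. In lists this small, 2 calls are few to set against 4.71% of all genes. As deposited neither Dusp5 nor Dll1 was called (0.31 and 0.36), and each of these 2 lists had 0 higher and 2 lower. Fth1, the ferritin heavy chain and an NRF2 target, rose by 0.75.

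The medians of several families moved towards 0 once the GC trend was removed. The median of 32 mitotic spindle and kinetochore genes went from 0.26 to -0.03, of 10 SR splicing factors from 0.38 to -0.03, of 13 SMC and condensin genes from 0.46 to 0.02, and of 13 tubulins from -0.42 to -0.12. Among 323 Zfp zinc finger genes, 10 rose (3.1%, against 4.71% of all genes) and 6 fell (1.86%, against 2.6%). Their median was 0.15 as deposited and 0.03 after. Polycomb, chromatin remodellers, histone lysine methyltransferases and demethylases, Hippo-YAP targets, mTORC1 regulators and the unfolded protein response held no call. In all, 16 of 52 lists and 22 of 79 families were without a call, and 50 and 68 of them had a median within 0.2 of 0.

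By chromosome, the medians of the mitochondrial genome, described above (1.2), of Y and of chromosome 6 lay outside the range of the others. On the autosomes other than chromosome 6 and on X, the median difference lay between -0.04 and 0.05. On chromosome 6 it was -0.11, and -0.06 in RA. Of 546 genes there, 15 were higher (2.75%, against 4.71% of all genes) and 31 lower (5.68%, against 2.6%). With length removed, 6 were higher and 33 lower, and the median was -0.1. On the Y chromosome all 7 genes tested were negative, 4 were called lower and the median was -0.73, and with no filter on low values 2 were lower of 11 and the median was -0.22. Ube1y1, the Y copy of the ubiquitin-activating enzyme gene, was 9.39, 9.39 and 9.44 against 8.12, 8.05 and 8.14 (-1.28, SE 0.0421), and -1.3 as deposited. Kdm5d, a histone demethylase, gave -0.89 and -0.61 as deposited. For the helicase gene Ddx3y (-0.88) and the demethylase-related Uty (-0.73) the call came from the correction alone, as their deposited differences were 0.03 and 0.13 at GC contents of 35.9 and 36.5%. As deposited, 2 of the 7 were called lower and the median was 0.13. In RA, 5 of the 7 were lower, with a median of -0.61. A gain or loss of chromosomes was not tested.

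Most of the ES calls were not found in RA. Of the 561 genes higher in homozygous ESCs, 17 were also called higher in RA, and of the 310 lower, 31. Calls were few in RA, with 59 of all 11904 genes higher (0.496%) and 131 lower (1.1%), which limits how many can be shared. Tested as an interaction, the RA difference was higher than the ES difference in 434 genes (3.65%) and lower in 688 (5.78%). The interaction was called against the ES direction for 368 of the genes higher and 180 of the genes lower in ES. Both contrasts share the ES libraries, so this count is in part fixed by them. Among the mitochondrially encoded protein genes 10 were called in ES and 0 in RA, and among the cytosolic ribosomal proteins 41 and 1, whereas the p53 targets had 14 and 17. Conversely, of 20 primitive and extraembryonic endoderm genes, 2 were higher in ES (10%, against 4.71% of all genes) and 0 lower. In a list this small, 2 calls are few to set against that share. In RA, 0 were higher and 9 lower, where 1.1% of all genes were called lower, and the median was -0.5.

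**Figure D5:**
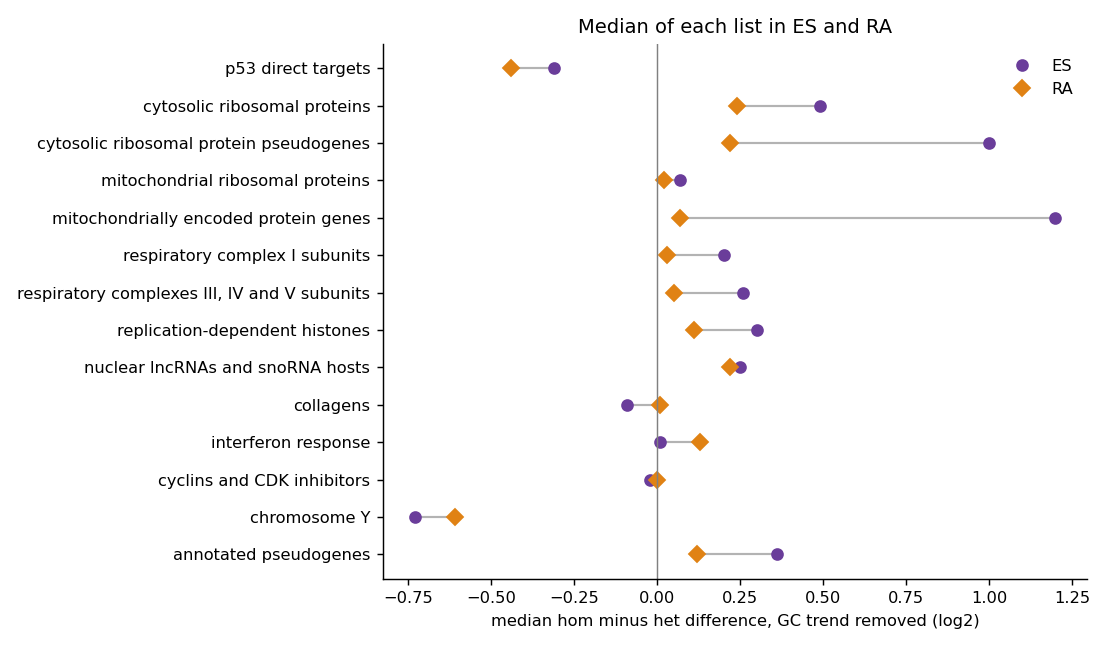
Median homozygous minus heterozygous difference with the GC trend removed (log2) of 14 lists in ES (circles) and after RA (diamonds). The medians of mitochondrial genes (1.2 and 0.07) and ribosomal protein pseudogenes (1 and 0.22) lie near 0 in RA, and those of p53 targets (-0.31 and -0.44) and Y genes (-0.73 and -0.61) do not.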

How the data were processed

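The rlog (log2) values used here were deposited by the authors, who per the labels and methods aligned stranded, ribosome-depleted total RNA reads to NCBI37/mm9 and GENCODE vM1, removed duplicates, counted reads in exons by gene name on the reverse strand, and normalised and transformed the counts with DESeq2. The submitters' processing notes name TopHat2 2.1.0, HTSeq 0.6.0 and DESeq2 1.14.1. No counts were used, so depth is unknown and no interval for counting error is given. Files of 4C-seq regions were not used here.

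Exonic GC content and length were computed per gene name from GENCODE vM1 on NCBIM37 (all exons merged, names with several loci pooled). For the GC-removed values, a lowess curve (span 0.3) of each library's deviation from the gene mean against GC content was subtracted, in genes whose rlog values averaged 3 or more over the table's 12 libraries. limma 3.58.1 in R 4.3.3 (eBayes with a mean-variance trend) was fitted to the 6 ES libraries, or to 12 for the interaction, and p-values were adjusted over all genes in the fit. In simulated data of 11904 genes for the GC-removed ES comparison, with 200 genes changed, 99% of changes of 1 and 93% of changes of 0.7 on the log2 scale were recovered, with 10 false calls. The simulation used independent normal noise and a straight GC trend, without a length trend. Its false calls therefore do not estimate those among the real calls.

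Genes named are the deleted lncRNA, key genes of each list, the up to 6 called members with the largest difference in a list, the 12 largest rises and falls with separated libraries, and the 3 largest as deposited. Of 1298 list entries, 17 had no symbol in the table. Families were defined by symbol patterns. Some genes and families that the rule covers are not reported here. Members and lists were chosen with earlier results of these data known. Sequences are from RefSeq, GRCm38.p6.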

Additional observations from a re-analysis of the deposited data

Results flagged for a closer look

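For the genes below, the RA difference and the ES difference of homozygous minus heterozygous cells were not the same by the interaction test (limma, Benjamini-Hochberg adjusted p under 0.1 and a change of the difference over 0.5), and the values are the RA difference minus the ES difference on the log2 scale with the GC trend removed. Many of these genes are named because their ES difference was large, and the interaction subtracts that same difference. A value of the opposite sign is therefore in part fixed by the choice of genes, and is not independent support for a change in RA. Groups of 3 libraries are too small for a test of single outlying libraries.

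In the p53 pathway and at the deleted gene, the change was 0.58 for 5430416N02Rik, 0.62 for Trp53, -1.75 for Cdkn1a and -0.65 for Bbc3. Among pluripotency factors it was -0.91 for Klf4, -1.15 for Klf5 and -0.63 for Klf2.

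Among mitochondrial genes it was -1.54 for mt-Nd3, -1.58 for mt-Atp8, -1.47 for mt-Co3, -1.32 for mt-Co2, -1.27 for mt-Nd1, -1.12 for mt-Cytb, -0.98 for mt-Rnr1 and -0.75 for mt-Rnr2. Among nuclear genes of the respiratory chain and mitochondrial ribosome it was -1.1 for Ndufa6, 0.77 for Ndufb3, -0.91 for Atp5g2, -0.83 for Cox7a2, -0.69 for Mrpl42 and 0.58 for Mrpl51.

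Among ribosomal protein genes and their pseudogenes it was -1.02 for Rpl39, -0.5 for Rps16, -0.86 for Rps29, -1.99 for Rpl14-ps1, -1.49 for Rps13-ps1, -0.57 for Rps16-ps2 and -1.2 for Rpl19-ps11. Among histone genes it was -1.87 for Hist1h4n, -1.44 for Hist1h2ag, -1.7 for Hist1h4c and -1.14 for Hist1h2bn.

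Among other short models and noncoding RNAs it was -2.03 for Gm13841, -1.92 for Gm15500, -1.4 for Gm7536, -2.04 for Gm11808, -0.57 for AY036118, -1.61 for Gm14456, -1.33 for Gm3362, -1.56 for Gm15450, -1.58 for Gm9385, -1.16 for Gm10925, -0.96 for Snhg3 and -0.6 for Snhg5. It was positive for Gm16869 (1.8), Gm10800 (1.41), Gm11168 (1.21), RNaseP_nuc (1.48), SNORA25 (1.11) and Dppa5b (3.23).

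Among the remaining genes it was 0.83 for Col5a2, 0.78 for Col11a1, -0.72 for Col27a1, -0.68 for Ifitm2, 0.84 for Oas1a, 0.87 for Bst2, 0.52 for Cdkn1b, -0.74 for Hspe1, -0.65 for Dnaja1, -0.75 for Dusp5, -0.6 for Fth1, 0.77 for Abca1, 0.65 for Abcc1 and 0.67 for Kdm5d.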

How the results depend on the processing

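Numbers of genes called higher and lower moved by more than 1.5 times under these settings. With no limit on size, 3696 and 4230 genes passed as deposited, 2746 and 2878 with the GC trend removed, and 1980 and 1855 in the RA minus ES comparison. An adjusted p under 0.05 with a fold over 1.5 gave 852 lower as deposited, 155 lower with the trend removed, and 215 higher and 455 lower in RA minus ES. With a mean rlog of at least 5, 192 were lower in ES, and 245 higher and 456 lower in RA minus ES. With no filter on low values, 898 were higher and 552 lower in ES, and 810 higher in RA minus ES. Without removal of the trend, 1446 and 1338 were called in ES and 1456 and 1520 in RA minus ES. Among families (higher and lower), removal of length left 1 lower cytosolic ribosomal protein, 2 and 2 mitochondrial ribosomal proteins, 3 higher in complex I, 6 and 1 in complexes III to V, 12 and 9 histones, 2 lower collagens and 8 lower pseudogenes. Without removal of the trend there were 0 lower in complex I, 2 lower in complexes III to V, 6 and 11 histones, 10 higher snoRNA hosts, 0 and 11 collagens, 2 lower Y genes and 10 lower pseudogenes. A GC curve fitted in 4 classes of mean rlog gave 2 higher collagens. With no filter on low values there were 15 and 7 histones, 2 lower Y genes, 2 and 6 collagens, and 76 and 9 pseudogenes of 1510. Under the strict limit 3 mitochondrial ribosomal proteins were higher and 0 lower, 1 cyclin or CDK inhibitor was higher and 1 lower, and 2 collagens and 3 pseudogenes were lower. Direction reversed for mt-Rnr2 under quantile normalisation (-0.97 in ES, 0.85 in RA minus ES), for Ddx3y (0.03) and Uty (0.13) without removal of the trend, and for Ddx3y in RA minus ES with no filter (-0.58) or without removal (-0.84). The cause was not tested. Leaving out 1 library at a time gave 1462 to 1556 higher and 1337 to 1465 lower as deposited, 567 to 611 and 324 to 347 with the trend removed, and 409 to 481 and 652 to 729 in RA minus ES. Of 588 such values for 98 genes in ES, 581 stayed on their side of the threshold in the same direction.

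Same-numbered ES libraries deviated together at correlations of only 0.09, 0.01 and 0.05, although each was closest to its own number, so the numbers were not taken to pair the samples. A fit with the replicate number as a block gave 1500 and 1383 calls as deposited, 561 and 310 with the trend removed, and 435 and 691 in RA minus ES. Without counts, depth sets no stated limit, and rlog values understate differences of weakly expressed genes.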
